A study of Homo sapiens with 16 samples.

Results

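The cyclin kinase inhibitors examined here were 6 genes: CDKN1A, CDKN1B and CDKN1C of the CIP/KIP family, CDKN2C and CDKN2D of the INK4 family, and CDKN3. They were chosen by name, and they are 6 of the 37864 genes in the count table. Of these, 5 were among the 17991 genes that passed the filter on low counts. CDKN1C did not pass and was not tested.

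RNA was sequenced from MDA-MB-231, a human breast cancer line of the triple-negative type that grows with a mesenchymal shape. The combination group received afatinib and paclitaxel, the afatinib and paclitaxel groups received 1 drug each, and the DMSO group received the solvent, with 4 libraries in each group and 16 in all. Afatinib is an irreversible inhibitor of the ErbB family kinases, among them EGFR, and paclitaxel stabilises microtubules, which arrests dividing cells in mitosis. All groups were the same line in the same serum-containing medium, and neither dose nor length of exposure is stated in the labels.

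A cell moves from G1 into S phase, and from G2 into mitosis, when cyclin-dependent kinases (CDKs) bound to cyclins become active. CIP/KIP proteins bind whole cyclin-CDK complexes and act most strongly on CDK2, while INK4 proteins bind CDK4 and CDK6 and keep them from cyclin D. CDKN3 is a phosphatase that removes the activating phosphate from CDK2 and CDK1, and its transcript is known to be high in dividing cells.

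The 6 genes lie on 6 chromosomes in GRCh38, by GENCODE v29. CDKN1A (ENSG00000124762) spans chromosome 6 from 36676460 to 36687339 on the plus strand, and CDKN1B (ENSG00000111276) spans chromosome 12 from 12715058 to 12722371 on the plus strand. CDKN1C (ENSG00000129757) spans chromosome 11 from 2883213 to 2885773 on the minus strand, within an imprinted cluster. CDKN2C (ENSG00000123080) spans chromosome 1 from 50960745 to 50974633 on the plus strand, and CDKN2D (ENSG00000129355) spans chromosome 19 from 10566462 to 10569059 on the minus strand. CDKN3 (ENSG00000100526) spans chromosome 14 from 54396849 to 54420218 on the plus strand. All are protein coding. The only gene whose exons overlapped those of a member was DINOL, antisense to CDKN1A, by up to 146 bases. DINOL was not among the genes of the count table, and the strand setting of the counting is not stated. Whether the CDKN1A counts hold DINOL reads from that stretch is therefore unknown.

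The 250 bases before a RefSeq transcription start (GRCh38.p14) are shown for CDKN1A, CDKN2C and CDKN3, the members with the largest changes. Each is read 5′ to 3′ on the gene's own strand and ends at the base before the start, and CDKN2C is shown at the second of its 3 starts. Capitals mark GGGCGG, the core of an SP1 site, in CDKN1A and CDKN2C, and TTCAAA in CDKN3. TTCAAA is the reverse complement of TTTGAA, the core of the cell cycle genes homology region (CHR) found in many genes of G2 and mitosis.
CDKN1A, chr6:36678464-36678713, plus strand: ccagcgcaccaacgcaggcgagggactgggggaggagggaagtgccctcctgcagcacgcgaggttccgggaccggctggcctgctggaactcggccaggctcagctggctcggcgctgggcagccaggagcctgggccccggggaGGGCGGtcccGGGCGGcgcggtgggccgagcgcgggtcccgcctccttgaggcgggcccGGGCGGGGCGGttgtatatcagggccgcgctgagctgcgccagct
CDKN2C, chr1:50968456-50968705, plus strand: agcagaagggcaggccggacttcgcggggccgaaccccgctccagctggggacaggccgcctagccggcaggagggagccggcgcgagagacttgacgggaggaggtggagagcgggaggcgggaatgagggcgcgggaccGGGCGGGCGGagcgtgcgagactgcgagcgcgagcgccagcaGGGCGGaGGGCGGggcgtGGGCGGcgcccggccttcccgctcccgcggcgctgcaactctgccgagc
CDKN3, chr14:54396757-54397006, plus strand: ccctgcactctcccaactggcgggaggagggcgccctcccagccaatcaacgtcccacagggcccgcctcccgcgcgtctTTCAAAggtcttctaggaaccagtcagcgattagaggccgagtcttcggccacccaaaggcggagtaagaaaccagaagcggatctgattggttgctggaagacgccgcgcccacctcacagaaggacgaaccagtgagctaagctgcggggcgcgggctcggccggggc
The CDKN1A stretch held GGGCGG 4 times, the last 2 of them overlapping, and the CDKN2C stretch held it 5 times, the first 2 overlapping. CDKN3 had none and had a single TTTGAA, on the opposite strand, 170 bases before the start. Over both strands, 42.6% of 35116 promoter stretches of the same length held GGGCGG and 13.3% held TTTGAA. RefSeq gave such stretches for 5 members, with 7 starts. CDKN1B held GGGCGG 1 time, CDKN2D 2 times, and the other CDKN2C starts 1 time between them. None of the 7 stretches held TTTGGCGC, TTTCCCGC or TTTCGCGC (letters of E2F sites, present in 2.32% of all stretches), GTAAACA (a FOXO site, 2.98%) or TATAAA (the TATA box, 10.7%). GC content was 76.4% in the CDKN1A stretch, 77.2% in the CDKN2C stretch shown and 64.4% in that of CDKN3. The median over all stretches was 58%, and the other CDKN2C starts had 45.6% and 48.8%.

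Library totals ran from 28.4M counts (paclitaxel replicate 4) to 48.1M, and the biological coefficient of variation was 7.41%. In every group, replicates 1 and 2 had the higher labelled RNA concentration, 345.6 to 1290.9 ng/µl, while replicates 3 and 4 had 118 to 330 ng/µl. This division entered each test as a term. It was large: 69.5% of tested genes differed between the concentration sets. The labelled concentration also differed between treatments within a set, with means in replicates 1 and 2 of 623.3 ng/µl for the combination, 1002 for afatinib, 387.6 for paclitaxel and 1171 for DMSO. In replicates 3 and 4 the order differed, with means of 142.8 ng/µl for the combination, 184.3 for afatinib, 252.4 for paclitaxel and 311 for DMSO. The part of concentration in the results was not tested beyond the fits that include it. The share of counts from mitochondrially encoded genes averaged 5.98% in combination libraries, 4.98% in afatinib, 4.94% in paclitaxel and 3.36% in DMSO libraries, and its part in the results was not tested. The labels do not say that replicates were separate cultures, so each p-value measures only how far these samples spread, and that spread may be technical. In bulk RNA, fewer cells of a type (for example, fewer cells in G1) and less RNA per cell cannot be told apart.

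The line's own markers were high in every library, with VIM at 844 to 1210 CPM (counts scaled to the same total in every library), AXL at 1270 to 2090, CD44 at 850 to 2140 and EGFR at 420 to 1050. Of the luminal and epithelial markers, ESR1 stayed at or under 0.491 CPM and CDH1 at or under 0.407, while PGR (3.8 to 6.44) and GATA3 (8.22 to 14.3) were detected. The 4 luminal and epithelial markers summed to 13.2 to 15.4 CPM in combination libraries, 14.5 to 17.1 in afatinib, 16.8 to 18.3 in paclitaxel and 17.5 to 20.1 in DMSO libraries. Blood markers (3 of 4 matched) summed to 0.499 to 1.12 CPM in combination libraries, 0.537 to 1.07 in afatinib, 0.764 to 1.75 in paclitaxel and 0.491 to 0.755 in DMSO libraries. In the same order of groups, fibroblast markers (3 of 4) summed to 1.91 to 4.81, 2.13 to 6.6, 2.43 to 5.17 and 3.64 to 8.25 CPM, and endothelial markers (3 of 3) to 1.56 to 2.17, 1.64 to 2.71, 2.41 to 4.07 and 2.36 to 5.07 CPM. PTPRC, CD3E, LUM and COL1A2 were at or under 0.116 CPM in every library and at 0 in at least 1. PDGFRB (1.89 to 8.12 CPM) and CD14 (0.402 to 1.7 CPM) were detected in every library. So were PECAM1 (0.976 to 1.92), VWF (0.217 to 0.72) and CDH5 (0.138 to 2.64). By the edgeR test described below, CD14 was higher against DMSO with the combination (log2 fold change 0.51) and paclitaxel (1.07). PDGFRB was lower with both (−0.75 and −0.50), CDH5 was lower with afatinib (−1.69), and 1 endothelial marker was lower with the combination. The part of these cell types in the results was not tested.

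With the combination, CDKN1A fell to about 0.506 of its DMSO level, and CDKN3 rose 1.61-fold. CDKN1B and CDKN2C rose by less, and CDKN2D did not pass the test. Of the 5 tested members, 4 passed in the combination against DMSO (3 higher and 1 lower), where 38% of all tested genes passed. In afatinib against DMSO, 2 members passed (CDKN2C higher, CDKN1A lower), where 19.1% of all genes passed. In paclitaxel against DMSO, 3 passed (CDKN3 higher, CDKN1A and CDKN2C lower), where 20.5% passed. With 5 genes such shares describe only the members, and the 3 comparisons share the DMSO libraries. A call here means a Benjamini-Hochberg adjusted p under 0.05 over all 17991 genes in the quasi-likelihood F-test of edgeR, fitted to all 16 libraries. Levels are in CPM, scaled with trimmed-mean (TMM) factors, and each ± after a log2 fold change is its SE.

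Per kilobase of exon, which lets genes be compared with each other, the mean level in combination libraries was 57.1 CPM for CDKN3, 20.9 for CDKN1B, 18.7 for CDKN2C, 14.8 for CDKN2D and 7.45 for CDKN1A. In DMSO libraries the means were 34.9 CPM per kilobase for CDKN3, 17.4 for CDKN1B, 16.0 for CDKN2D, 15.6 for CDKN2C and 14.8 for CDKN1A. CDKN3 was thus the most abundant member in both groups, while CDKN1A was the lowest of the tested 5 in both.

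**Figure D1:**
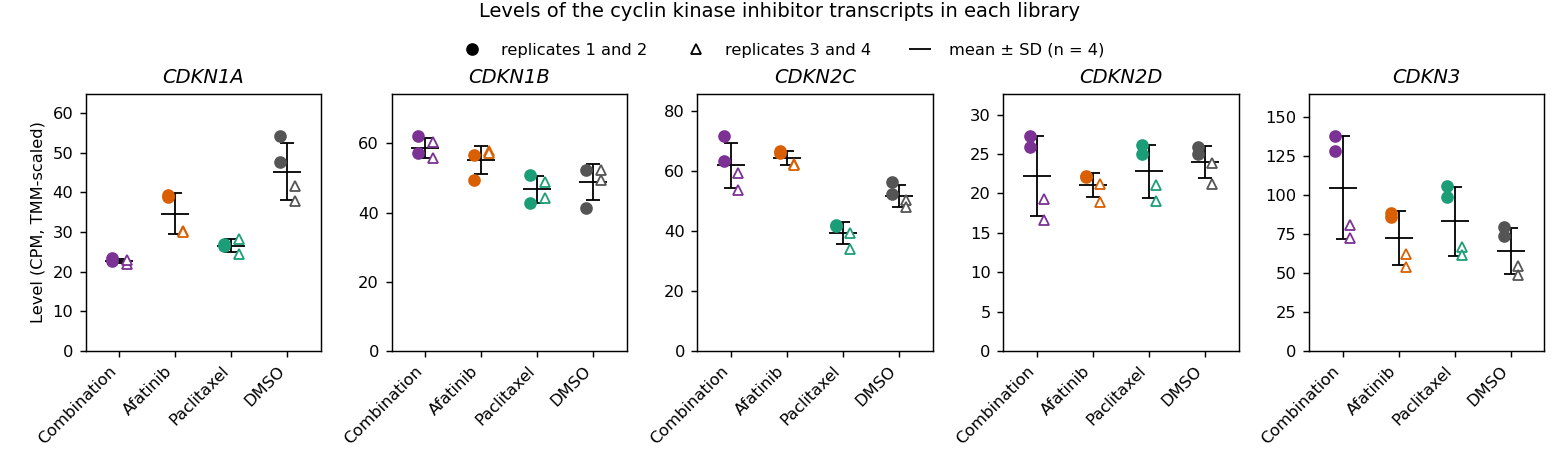
Level of each tested cyclin kinase inhibitor in CPM (vertical axis) in every library, by treatment (horizontal axis). Filled circles are replicates 1 and 2, open triangles are replicates 3 and 4, and bars give the mean ± SD of 4 libraries. CDKN1A is lowest in the combination (21.97 to 23.3 CPM) and highest in DMSO (37.7 to 54.1 CPM), while the CDKN3 triangles sit under the circles in every group.

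CDKN1A, which encodes p21, an inhibitor of cyclin-CDK2 complexes, was the member with the largest change. Its level was 22.8, 23.3, 21.97 and 22.8 CPM in combination replicates 1 to 4 and 39.4, 38.9, 30.2 and 30.0 CPM in afatinib replicates 1 to 4. It was 26.9, 26.4, 28.3 and 24.5 CPM in paclitaxel replicates 1 to 4 and 47.6, 54.1, 41.5 and 37.7 CPM in DMSO replicates 1 to 4. Every combination library lay below every library of the other 3 groups, and every paclitaxel library lay below every afatinib and DMSO library. Afatinib and DMSO libraries overlapped over all replicates but not within either concentration set. A set holds so few libraries of a group that separation within it says little. The share of all genes whose groups separate was not computed, here or for the members below.

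The log2 fold change of CDKN1A against DMSO was −0.98 ± 0.08 with the combination (edgeR, adjusted p = 2.17e-10), −0.39 ± 0.07 with afatinib (adjusted p = 0.000659) and −0.76 ± 0.08 with paclitaxel (adjusted p = 8.57e-08). The fall was present in each concentration set: −1.14 in replicates 1 and 2 and −0.82 in replicates 3 and 4 with the combination, −0.37 and −0.40 with afatinib, and −0.93 and −0.58 with paclitaxel. With log2 RNA concentration also in the fit, the combination value was −0.83 (edgeR, adjusted p = 1.03e-06), the afatinib value −0.32 (0.00650) and the paclitaxel value −0.62 (0.000139). The authors' table corrected for RNA concentration was fitted, here and below, with limma and without the term for the concentration set. On it neither single-drug value passed: it was −0.28 with afatinib (limma, adjusted p = 0.176) and −0.46 with paclitaxel (0.0730). Without the set term the afatinib value was −0.39 and no longer passed (edgeR, adjusted p = 0.112).

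The order of the 4 groups for CDKN1A was combination, paclitaxel, afatinib and DMSO from low to high, and every neighbouring pair passed the test. Combination over afatinib was −0.60 ± 0.08 on the log2 scale (edgeR, adjusted p = 1.76e-06), and afatinib over paclitaxel was 0.37 ± 0.08 (adjusted p = 0.000474). The afatinib over paclitaxel value was 0.18 in replicates 3 and 4 alone (adjusted p = 0.234) and 0.18 on the authors' corrected table (limma, adjusted p = 0.256), and neither passed. The smallest step, combination over paclitaxel, was −0.22 ± 0.08 (edgeR, adjusted p = 0.0365). It did not pass in replicates 1 and 2 alone (−0.21, 0.115), in replicates 3 and 4 alone (−0.24, 0.154) or on the corrected table (−0.26, limma adjusted p = 0.167). It also lost its call without combination replicate 1 (adjusted p = 0.127) or 2 (0.126), and without paclitaxel replicate 3 (0.202) or 4 (0.0636). In combination against afatinib, 2 of the 5 members passed (CDKN3 higher, CDKN1A lower), where 27.4% of all genes passed. In combination against paclitaxel, 4 of 5 passed (3 higher, CDKN1A lower), where 24.2% passed, and in afatinib against paclitaxel 4 of 5 passed (3 higher, CDKN3 lower), where 36% passed.

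CDKN1B encodes p27, whose protein is removed after the SKP2-CKS1B ubiquitin ligase marks it. Its level was 57.1, 62.0, 60.4 and 55.6 CPM in combination replicates 1 to 4 and 49.3, 56.6, 57.9 and 57.2 CPM in afatinib replicates 1 to 4. It was 42.7, 50.9, 49.0 and 44.2 CPM in paclitaxel replicates 1 to 4 and 41.2, 52.4, 52.2 and 49.4 CPM in DMSO replicates 1 to 4. Combination libraries lay above all paclitaxel and DMSO libraries, and the other groups overlapped, with a low first replicate in afatinib, paclitaxel and DMSO.

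CDKN1B rose with the combination by 0.27 ± 0.07 on the log2 scale (edgeR, adjusted p = 0.00458), with 0.35 in replicates 1 and 2 and 0.19 in replicates 3 and 4. That call was lost with log2 concentration in the fit (0.28, adjusted p = 0.0545), without the set term (0.27, 0.0652), in replicates 1 and 2 alone (0.0768), in replicates 3 and 4 alone (0.137) and on the authors' corrected table (0.24, limma adjusted p = 0.0728). Against paclitaxel it was higher in the combination by 0.33 ± 0.07 (adjusted p = 0.00152) and higher with afatinib by 0.24 ± 0.07 (0.0117). The afatinib over paclitaxel call was lost without paclitaxel replicate 1 (adjusted p = 0.0512), without the set term (0.110) and in replicates 1 and 2 alone (0.362). The combination over paclitaxel call was lost without the set term (adjusted p = 0.0519) and in replicates 1 and 2 alone (0.129).

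In afatinib over DMSO the CDKN1B value was 0.18 ± 0.07 and did not pass (edgeR, adjusted p = 0.0858). It also did not pass in 25 of 29 alternatives. It passed with a replicate block (0.18, adjusted p = 0.0108), without afatinib replicate 1 (0.23, 0.0422), without DMSO replicate 2 (0.23, 0.0464) and with upper-quartile factors (0.21, 0.0448). Without DMSO replicate 1 the value was 0.11, the lowest of those with a library left out, and it did not pass. With paclitaxel it was −0.06 ± 0.07 (adjusted p = 0.612), and its 95% interval ran from −0.21 to 0.09. From low to high the order was paclitaxel, DMSO, afatinib and combination, and no neighbouring pair passed.

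CDKN1C encodes p57, an imprinted inhibitor. Its counts summed to 3 over the 4 combination libraries, 6 over afatinib, 7 over paclitaxel and 10 over DMSO, with 0 to 5 in any library. At this depth, where 1 count was worth 0.0234 CPM in the median library, no difference in CDKN1C was detectable. Of 6 listed imprinted neighbours, 3 were tested. KCNQ1OT1, the long noncoding RNA that silences the cluster on the paternal chromosome, rose with the combination (0.71 ± 0.13) and paclitaxel (1.05 ± 0.13) and was 0.00 ± 0.13 with afatinib. On the authors' corrected table, KCNQ1OT1 with the combination was −0.13. SLC22A18 stood on more than 1 identifier, so its counts are uncertain, and on the tested identifier it was 0.53 ± 0.19 with the combination (edgeR, adjusted p = 0.0271) and 0.83 ± 0.18 with afatinib (0.00200), both called, and −0.13 ± 0.20 with paclitaxel. IGF2 passed in none of the 3 comparisons with DMSO.

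CDKN2C encodes p18, an inhibitor of CDK4 and CDK6, and was the only tested member called in opposite directions with the single drugs. Its level was 63.4, 71.4, 59.1 and 53.7 CPM in combination replicates 1 to 4 and 66.5, 66.1, 62.4 and 62.1 CPM in afatinib replicates 1 to 4. It was 41.7, 42.1, 39.5 and 34.1 CPM in paclitaxel replicates 1 to 4 and 52.1, 56.4, 50.2 and 47.8 CPM in DMSO replicates 1 to 4. All afatinib libraries lay above all DMSO libraries and all paclitaxel libraries lay below them. Combination and DMSO libraries overlapped over all replicates, where combination replicate 4 was below DMSO replicate 2, but not within either set.

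CDKN2C rose with afatinib by 0.32 ± 0.06 on the log2 scale (edgeR, adjusted p = 0.000466) and with the combination by 0.26 ± 0.06 (adjusted p = 0.00106). It fell by 0.39 with paclitaxel (SE 0.06, adjusted p = 3.32e-05). Without the set term neither rise passed (afatinib 0.32, adjusted p = 0.106; combination 0.26, 0.0815), and in replicates 3 and 4 alone neither did (0.0653 and 0.141). The values in replicates 1 and 2 and in replicates 3 and 4 were 0.32 and 0.20 with the combination, 0.30 and 0.34 with afatinib, and −0.37 and −0.41 with paclitaxel. On the authors' corrected table the paclitaxel value was −0.28 and no longer passed (limma, adjusted p = 0.0889).

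Against paclitaxel, CDKN2C was higher in the combination by 0.65 ± 0.06 (edgeR, adjusted p = 3.71e-08) and with afatinib by 0.71 ± 0.06 (adjusted p = 3.25e-09), and both calls held under every alternative run. The combination over afatinib value was −0.06 ± 0.06 (adjusted p = 0.514), with a 95% interval from −0.18 to 0.06. From low to high, the order was paclitaxel, DMSO, combination and afatinib, and the first 2 steps passed while the last did not.

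CDKN2D encodes p19 of the INK4 family, another inhibitor of CDK4 and CDK6. It ranged from 16.6 to 27.2 CPM in combination libraries (mean 22.3 ± 5.08, SD, n = 4), from 18.9 to 22.2 CPM in afatinib (21.1 ± 1.51), from 18.99 to 26.2 CPM in paclitaxel (22.8 ± 3.33) and from 21.2 to 25.9 CPM in DMSO libraries (23.99 ± 2.02). Over all 4 replicates the groups overlapped in every pair, and combination replicates 3 and 4 were the lowest of their group. Within each concentration set, afatinib libraries lay below DMSO libraries. In replicates 3 and 4 this was by almost nothing, with 21.19 CPM in afatinib replicate 4 and 21.20 CPM in DMSO replicate 4. No comparison of CDKN2D passed the test. Its log2 fold change against DMSO was −0.12 ± 0.08 with the combination (edgeR, adjusted p = 0.238; 95% interval −0.29 to 0.04), −0.18 ± 0.08 with afatinib (0.112; −0.35 to −0.02) and −0.08 ± 0.08 with paclitaxel (0.549; −0.24 to 0.09). The combination value was 0.07 in replicates 1 and 2 and −0.33 in replicates 3 and 4. Combination over afatinib also differed between the sets, with 0.25 in replicates 1 and 2, which passed when they were fitted alone (adjusted p = 0.0484), and −0.15 in replicates 3 and 4, which did not (0.423).

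CDKN3, the phosphatase of CDK2 and CDK1, was 128, 138, 81.1 and 72.3 CPM in combination replicates 1 to 4 and 85.7, 88.7, 53.9 and 62.2 CPM in afatinib replicates 1 to 4. It was 99.04, 106, 66.8 and 61.8 CPM in paclitaxel replicates 1 to 4 and 73.9, 79.4, 54.5 and 48.7 CPM in DMSO replicates 1 to 4. Replicates 3 and 4 were below replicates 1 and 2 in every group, and so the groups overlapped over all 4 replicates. Within each concentration set, combination libraries lay above those of every other group, and paclitaxel libraries lay above DMSO libraries.

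CDKN3 rose with the combination by 0.69 ± 0.06 on the log2 scale (edgeR, adjusted p = 4.61e-09), with 0.80 in replicates 1 and 2 and 0.57 in replicates 3 and 4. It rose with paclitaxel by 0.37 ± 0.06 (adjusted p = 0.000160), with 0.42 and 0.32 in the sets. With log2 concentration in the fit these values were 0.71 (adjusted p = 2.33e-06) and 0.39 (0.00465). Without the set term the combination value was 0.71 (adjusted p = 0.0785) and the paclitaxel value 0.38 (0.588), neither called. In replicates 3 and 4 alone the paclitaxel value did not pass (adjusted p = 0.0878), and on the authors' corrected table the paclitaxel value was 0.53 and no longer passed (limma, adjusted p = 0.118).

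With afatinib, CDKN3 was 0.18 ± 0.06 over DMSO and did not pass (edgeR, adjusted p = 0.0529). It also did not pass in 23 of 29 alternatives, among them log2 concentration in the fit (0.19, edgeR adjusted p = 0.0854). It passed with the replicate block (0.18, adjusted p = 0.0241), with upper-quartile factors (0.21, 0.0217), with the stricter count filter (0.19, 0.0316), with only these groups in the fit (0.18, 0.0487), without combination replicate 4 (0.18, 0.0312) and without DMSO replicate 3 (0.22, 0.0183). From low to high the order was DMSO, afatinib, paclitaxel and combination. Combination over paclitaxel was 0.32 ± 0.06 (edgeR, adjusted p = 0.000597), and combination over afatinib was 0.51 ± 0.06 (adjusted p = 1.16e-06). Combination over paclitaxel no longer passed in replicates 3 and 4 alone (0.25, adjusted p = 0.144), without the set term (0.33, 0.621) or on the corrected table (0.30, limma adjusted p = 0.366). Combination over afatinib no longer passed without the set term (0.53, edgeR adjusted p = 0.273) or on the corrected table (0.60, limma adjusted p = 0.0684). Afatinib over paclitaxel was −0.19 ± 0.06 (edgeR, adjusted p = 0.0216), a call lost without afatinib replicate 1 (0.0653) or 3 (0.0818) or paclitaxel replicate 2 (0.0643) or 3 (0.0673). That call was also lost without the set term (0.716), in replicates 3 and 4 alone (0.303) and on the corrected table (limma adjusted p = 0.282).

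**Figure D2:**
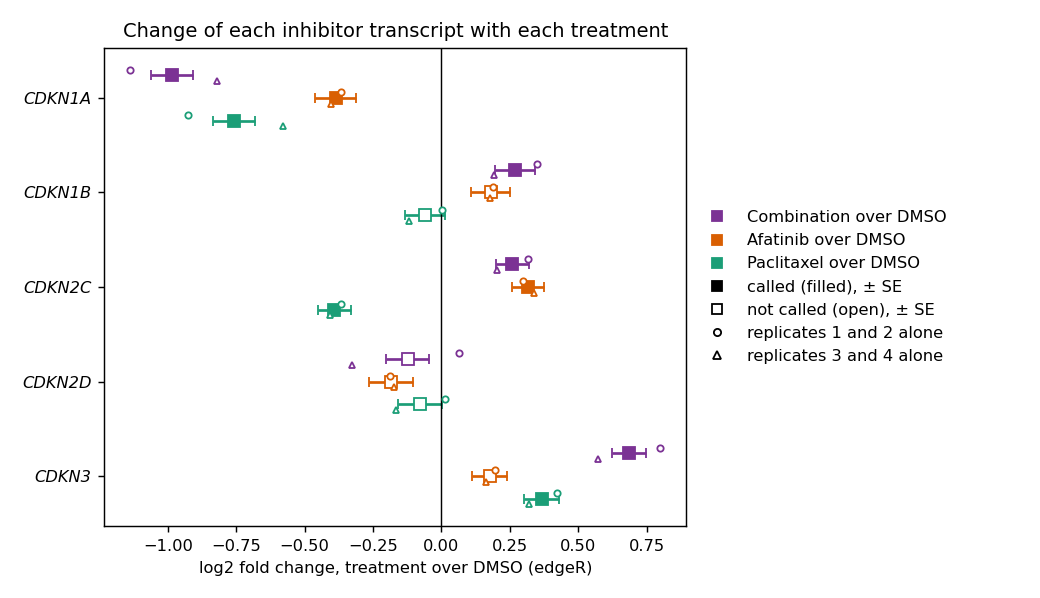
Log2 fold change against DMSO (axis in log2 units) of the 5 tested members with the combination, afatinib and paclitaxel, with SE bars. Filled symbols passed the edgeR test, and the small open circle and triangle give replicates 1 and 2 alone and replicates 3 and 4 alone. CDKN1A lies below 0 with every treatment, CDKN2C lies above 0 with afatinib and below 0 with paclitaxel, and CDKN3 is highest with the combination.

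The concentration sets themselves differed in 4 of the 5 members, a count to be read against the 69.5% of all genes. On the log2 scale, replicates 3 and 4 minus replicates 1 and 2 gave −0.66 ± 0.05 for CDKN3 (edgeR, adjusted p = 4.54e-12), −0.30 ± 0.06 for CDKN2D (3.96e-05), −0.20 ± 0.05 for CDKN1A (0.00170) and −0.17 ± 0.04 for CDKN2C (0.000879). For CDKN1B the difference was 0.05 ± 0.05 (adjusted p = 0.404). CDKN3 in combination replicates 3 and 4 (81.1 and 72.3 CPM) overlapped DMSO replicates 1 and 2 (73.9 and 79.4 CPM).

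To ask whether the combination equals the sum of the drugs on the log2 scale, the combination change was set against the sum of both single-drug changes. No member passed this interaction test, where 0.884% of all genes passed. The combination change of CDKN1A was −0.98, against a sum of −1.15. For CDKN3 the combination change was 0.69, against a sum of 0.54, and for CDKN1B it was 0.27, against 0.12. The combination change of CDKN2D was −0.12, against a sum of −0.26. CDKN2C lay farthest from its sum, with a combination change of 0.26 against −0.07, a difference of 0.33 ± 0.08 (edgeR, adjusted p = 0.0522; 95% interval 0.16 to 0.51).

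The CDKN2C interaction passed in 6 of 28 alternatives and did not pass in the other 22. With log2 concentration in the fit it was 0.33 and did not pass (edgeR, adjusted p = 0.0910). It was called with the replicate block (0.33, edgeR adjusted p = 0.0115), with DESeq2 (0.34, 0.00938), without the filter on low counts (0.36, 0.0150) and with DESeq2's size factors in edgeR (0.34, 0.0465). It was also called without combination replicate 4 (0.37, 0.0251) and without paclitaxel replicate 3 (0.37, 0.0467). The other 4 members had interaction values of 0.14 to 0.16, with SEs of 0.09 to 0.11, and their 95% intervals included 0.

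**Figure D3:**
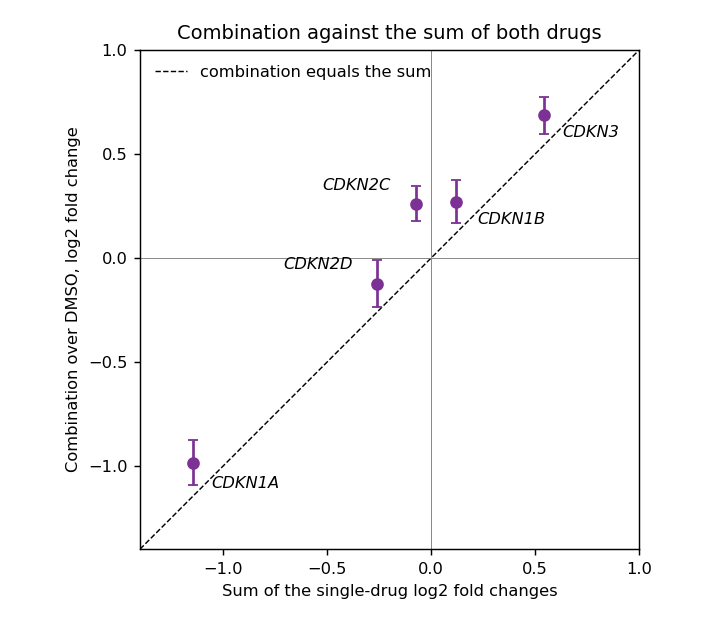
Log2 fold change of the combination over DMSO (vertical axis) against the sum of the afatinib and paclitaxel log2 fold changes (horizontal axis) for the 5 tested members. The bar is the SE of the difference and the dashed line marks equality. CDKN2C lies farthest above the line (0.26 against −0.07).

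The genes most like each member over the 16 libraries were taken from 9664 genes with an average log2 CPM of at least 3, by Pearson r on log2 CPM centred within each concentration set. These r values describe libraries that share treatments and replicate numbers, and carry no test. CDKN1A was most like TUBB (r = 0.98, a tubulin gene whose reads are divided over several identifiers), CAPZA1 (0.98, an actin capping protein) and UHRF1 (0.98, a cofactor of DNA methylation), and most unlike PPP4R1L (−0.97). CDKN1B was most like ZSCAN26 (0.96), SNN (0.93) and CHEK2 (0.92, a DNA damage kinase) and most unlike ADAMTS1 (−0.96, a secreted protease). CDKN2C was most like ALAD (0.98, an enzyme of haem synthesis), ACSS2 (0.98, which makes acetyl-CoA from acetate) and IDH1 (0.97, an isocitrate dehydrogenase), and most unlike RP11-214O1.2 (−0.95).

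CDKN2D was most like HDAC8 (r = 0.92), MAPK8 (0.89) and ACTL6A (0.88) and most unlike PQLC2 (−0.86). CDKN3 was most like DBF4 (0.99, the activator of the CDC7 kinase), BORA (0.99, an activator of Aurora A) and KNSTRN (0.98, a spindle protein), and most unlike MYADM (−0.98). Between members, r was −0.90 for CDKN1A with CDKN3, 0.79 for CDKN1B with CDKN2C, 0.54 for CDKN1B with CDKN3 and −0.32 for CDKN1A with CDKN1B. The same 4 treatment groups underlie each of these values.

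CDKs, cyclins and MNAT1 were examined as a list of 15 genes, which holds the kinases and cyclins that the members bind and others. With the combination, 4 rose and 8 fell (median log2 fold change −0.17, against 0.00 for all genes), with afatinib 0 rose and 5 fell (median −0.14), and with paclitaxel 5 rose and 7 fell (−0.03). These counts include genes at very low levels. CCND2, 1 of the paclitaxel rises (edgeR, adjusted p = 0.0470), averaged 0.183 CPM in DMSO and 0.367 in paclitaxel libraries. CDK7 had group means of 0.143 to 0.272 CPM. The share of the list called was 80% with the combination, 33.3% with afatinib and 80% with paclitaxel, where 38%, 19.1% and 20.5% of all genes were called. These 3 shares of all genes are the background for each list that follows, and nothing here tests a list against them. CDK2, the target of p21 and p27, was −0.58 ± 0.05 with the combination and −0.39 ± 0.05 with paclitaxel, both called, and −0.14 ± 0.05 with afatinib, not called. CDK4 fell with the combination (−0.29 ± 0.06) and paclitaxel (−0.38 ± 0.06) and was 0.01 with afatinib. The CDK4 combination value was 0.02 on the authors' corrected table. CDK6, the other INK4 target, fell in all 3 comparisons, by 0.88 with the combination, 0.46 with afatinib and 0.36 with paclitaxel, each with an SE of 0.07.

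Among cyclins, CCNE2, a partner of CDK2 at the G1/S transition, averaged 7.52 CPM in combination libraries, 23.3 in afatinib, 17.8 in paclitaxel and 29.4 in DMSO libraries. It fell by 1.98 (SE 0.09) with the combination, 0.33 with afatinib and 0.74 with paclitaxel on the log2 scale. CCNE1 fell with the combination (−0.74 ± 0.08) and paclitaxel (−0.51 ± 0.08) and was −0.04 with afatinib. The mitotic cyclins moved the other way: CCNB1 rose by 1.10 ± 0.06 with the combination and 0.69 ± 0.06 with paclitaxel, and was 0.06 with afatinib. CCNB2 rose by 0.84 ± 0.06 with the combination and 0.41 ± 0.06 with paclitaxel, and was 0.11 with afatinib.

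CCNA2, a cyclin of S and G2 phase, rose with the combination by 0.56 ± 0.07 and was 0.00 with afatinib. Its rise of 0.20 with paclitaxel lost the call without DMSO replicate 1, 2 or 4 (edgeR, adjusted p = 0.0570, 0.105 and 0.0665) or paclitaxel replicate 1, 2 or 3 (0.0582, 0.0951 and 0.0943). CDK1, the partner of the B cyclins, fell with the combination (−0.59 ± 0.07) and paclitaxel (−0.74 ± 0.07) and was −0.03 with afatinib. CCND1, encoding cyclin D1, fell with afatinib (−0.28 ± 0.06) and was 0.05 with paclitaxel. Its combination value of −0.17 lost the call without combination replicate 1 or 2 (adjusted p = 0.113 and 0.102) or DMSO replicate 1, 2 or 3 (0.111, 0.0563 and 0.0928).

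The 15 genes that act in the turnover of p21, p27 and p57 moved in both directions: 6 rose and 6 fell with the combination (median 0.07), 1 rose and 0 fell with afatinib (−0.05), and 4 rose and 7 fell with paclitaxel (−0.06). The called shares were 80% with the combination, 6.67% with afatinib and 73.3% with paclitaxel. SKP2 and CKS1B, which together recognise p27, fell by 0.76 and 0.57 with the combination and by 0.57 and 0.68 with paclitaxel, and were −0.15 and −0.05 with afatinib, not called. CKS2, the close relative of CKS1B, rose by 1.09 ± 0.08 with the combination and 0.54 ± 0.08 with paclitaxel. CDC20, which directs the anaphase-promoting complex to its targets, rose by 0.83 ± 0.06 with the combination and by 0.62 with paclitaxel.

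Among 17 pocket protein and E2F genes, which the CDKs act on, 4 rose and 6 fell with the combination (median −0.11), 1 rose and 1 fell with afatinib (−0.03), and 0 rose and 4 fell with paclitaxel (−0.06). The called shares were 58.8% with the combination, 11.8% with afatinib, under the share of all genes, and 23.5% with paclitaxel, near it. RB1 was −0.01, −0.03 and −0.06 with the combination, afatinib and paclitaxel and passed in none. E2F1 fell by 1.51 (SE 0.06) with the combination and 0.93 with paclitaxel, and E2F2 fell by 1.49 (SE 0.10) with the combination and 0.82 with paclitaxel. E2F8 fell by 0.85 and 0.59 and RBL1 by 0.64 and 0.45 with the combination and paclitaxel. With afatinib these 4 genes lay between −0.09 and 0.04 and did not pass.

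Of 20 listed transcription regulators of the members, 19 were tested: 3 rose and 10 fell with the combination (median −0.20), 4 rose and 0 fell with afatinib (−0.01), and 3 rose and 7 fell with paclitaxel (−0.12). The called shares were 68.4% with the combination, 21.1% with afatinib, near the share of all genes, and 52.6% with paclitaxel. SP1 fell by 0.80 (SE 0.07) with the combination and 0.51 with paclitaxel, and was −0.07 with afatinib. Its core motif stands before starts of CDKN1A, CDKN1B, CDKN2C and CDKN2D and in 42.6% of all promoter stretches. A link between SP1 and the members' values was not tested. KLF6 fell by 0.80 and 0.46 with the combination and paclitaxel, and TP73 fell by 1.40 with the combination and fell by 0.996 with paclitaxel. MYC, a repressor of CDKN1A, fell by 0.80 (SE 0.09) with the combination and was −0.20 with afatinib and −0.14 with paclitaxel, not called. FOXO3, an activator of CDKN1B, rose by 0.22, 0.23 and 0.23 with the combination, afatinib and paclitaxel.

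Among 12 targets of FOXO factors and of PI3K inhibition, 5 rose and 5 fell with the combination (median −0.09), 5 rose and 0 fell with afatinib (0.03), and 3 rose and 2 fell with paclitaxel (0.17), which makes called shares of 83.3%, 41.7% and 41.7%. PIK3IP1 rose with the combination (1.02 ± 0.13) and afatinib (0.57), while INSR, the insulin receptor, fell with the combination (−1.26 ± 0.10) and paclitaxel (−0.998). TXNIP rose by 0.51 with the combination and 0.52 with paclitaxel, and IRS2 by 0.41 and 0.62.

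CDKN3 is itself a gene of dividing cells, and genes of the same phase were examined beside it. Of 15 G2/M genes, 12 rose and 1 fell with the combination (median 0.68), 1 rose and 0 fell with afatinib (0.11), and 6 rose and 4 fell with paclitaxel (0.17). The called shares were 86.7% with the combination, 6.67% with afatinib, under the share of all genes, and 66.7% with paclitaxel. KIF20A, a mitotic kinesin, rose by 1.36 ± 0.07, CENPE, a kinetochore motor, by 1.21 ± 0.08, AURKA by 1.16 ± 0.07 and PLK1 by 0.85 ± 0.05 with the combination. With paclitaxel these genes rose by 0.85, 0.60, 0.72 and 0.50, and with afatinib none of them passed. Others of the list were lower with paclitaxel: TOP2A averaged 338 CPM in paclitaxel and 571 in DMSO libraries, and AURKB 160 and 232. In the interaction test, where 0.884% of all genes passed, 7 of the 15 were above the sum of the single drugs and 0 below it. That count was 0 without the set term, in either concentration set alone and on the corrected table. It was 3 without afatinib replicate 1, 2 without afatinib replicate 3, 3 without combination replicate 2, 2 without combination replicate 3 and 3 without DMSO replicate 4. It was 2, 12, 4 and 1 without paclitaxel replicates 1 to 4 in turn. The interaction test called 0 of 12 FOXO and PI3K-inhibition targets above the sum and 4 below it. Of 17 pocket protein and E2F genes, 0 were above and 2 below, E2F1 (−0.54) and E2F2 (−0.71). Of 15 CDKs and cyclins, CCNB1 (0.35) was above and CCNE2 (−0.91) below. In the turnover list 1 was above, in the CDK phosphatase list 2, with 0 below. Of the G1/S genes and transcription regulators, 0 passed. These counts were not recomputed in the alternatives.

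Of 14 G1/S genes, 0 rose and 14 fell with the combination (median −0.68), 1 rose and 6 fell with afatinib (−0.16), and 0 rose and 12 fell with paclitaxel (−0.45), which makes called shares of 100%, 50% and 85.7%. MCM6, part of the replicative helicase, fell by 1.21 with the combination and 0.76 with paclitaxel, and CDC45 by 1.09 and 0.70. CDC6 fell by 1.12 with the combination and 0.46 with paclitaxel, and PCNA by 1.03 and 0.56. Among 7 CDK phosphatases and the kinases opposing them, 4 rose and 2 fell with the combination (median 0.18), 0 rose and 1 fell with afatinib (0.01), and 0 rose and 3 fell with paclitaxel (−0.15), which makes called shares of 85.7%, 14.3% and 42.9%. PKMYT1, which holds CDK1 inactive, fell by 0.96 (SE 0.07) with the combination and 0.57 with paclitaxel. CDC25A fell with the combination (−0.41) and afatinib (−0.26), while CDC25B (0.33) and CDC14A (0.33) rose with the combination.

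**Figure D4:**
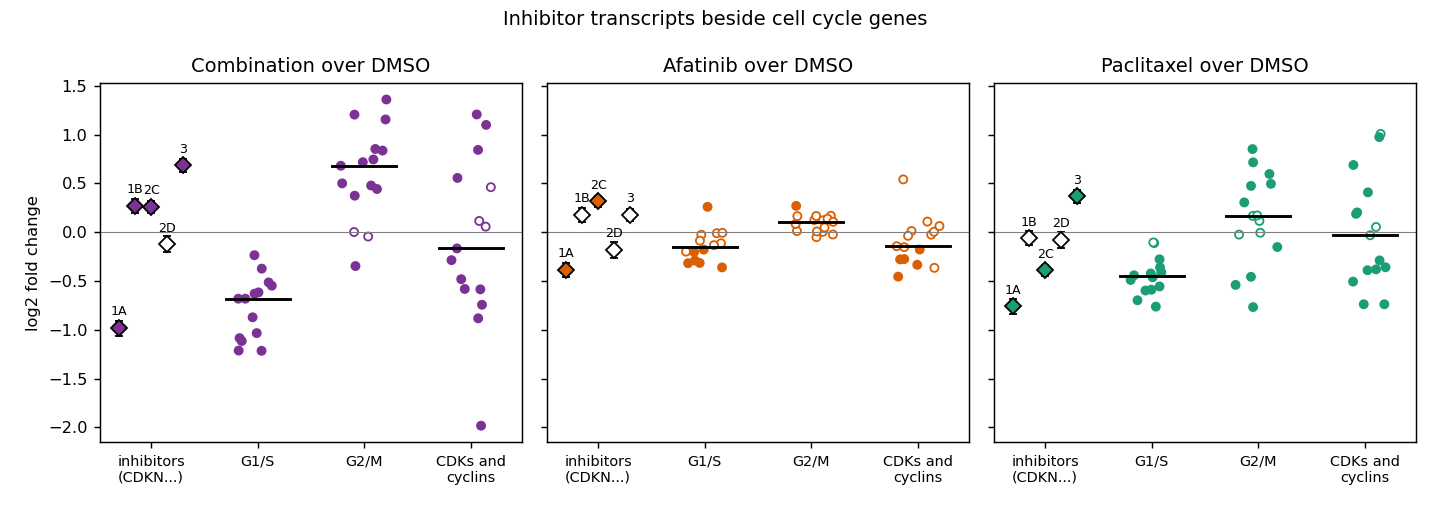
Log2 fold change against DMSO (axis in log2 units) of the members (diamonds with SE bars) beside the G1/S, G2/M, and CDK and cyclin lists (points), for the combination, afatinib and paclitaxel. Filled symbols passed the edgeR test and a line marks each list's median. With the combination the G2/M median is 0.68 and the G1/S median −0.68, with CDKN3 at 0.69 and CDKN1A at −0.98.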

How the data were processed

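The authors deposited whole-number gene counts and a log2 table. Per the submitters' processing notes, reads were aligned with STAR 2.7.5b to hg38 and counted with featureCounts from Subread 2.0.1. The log2 table was normalized and corrected for RNA concentration by the authors, going by its own title, and served only as an alternative. It was fitted with limma, with group as a term but not the concentration set. Its values thus differ from the main ones in data, method and terms, and which of these moved a call was not tested. The counts come with a gene length, which was used for levels per kilobase. Genes without a symbol held 0.036 to 0.0462% of a library's counts and stayed in the tests.

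Genes were kept by filterByExpr (minimum count 10, minimum total 15). After TMM scaling, edgeR 4.0.16 (R 4.3.3) was fitted once to all 16 libraries, with group and concentration set as terms, and comparisons were tested by its robust quasi-likelihood method. Adjusted p-values are Benjamini-Hochberg over all 17991 genes, and a call is an adjusted p under 0.05. An SE was taken as the size of the log2 fold change over the root of F, and 95% intervals use the t quantile at the fit's degrees of freedom. Other scalings, filters and tools, the concentration terms, each set alone and each library left out were run, with limma 3.58.1 and DESeq2 1.42.0 among them. The script was tested on simulated data.

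The members and gene lists were chosen with earlier results of these data known. Named list genes are the partners and regulators listed for the members, plus up to 4 per list with the smallest p against DMSO. The results of 1 gene list are not reported here. Genes most like a member are the 3 with the highest r and the 1 with the lowest.

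Replicate numbers are shared by the groups in the labels, and same-numbered libraries deviated together: r was 0.367 to 0.704 over 24 pairs (median 0.59), all over 0.1. After removing the set means, r was −0.00327 to 0.233 (median 0.126). The tests hold the concentration set and not the single replicate numbers, and a replicate block was run as an alternative.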

Additional observations from a re-analysis of the deposited data

Results flagged for a closer look

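CDKN1B in afatinib replicate 1 was 49.3 CPM, below the other afatinib libraries, which lay between 56.6 and 57.9 CPM. It was the only 1 of the 20 groups of 4 libraries examined, over the 5 tested members, in which a library stood apart from the others by its gap relative to the group's range. Chance alone marks about 1 in 20 such groups. Without this library the afatinib over DMSO difference of CDKN1B was 0.23 (edgeR, adjusted p = 0.0422), against 0.18 (0.0858) with it.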

How the results depend on the processing

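The 35 member values (5 members, 7 comparisons) were recomputed under 29 settings, which gave 1010 values: 939 kept direction and call, 45 lost a call, 17 gained one and 9 changed sign. Of the 19 calls, 4 held in every setting: CDKN1A in combination over DMSO and over afatinib, and CDKN2C in combination over paclitaxel and in afatinib over paclitaxel. The replicate block changed 3 calls, CDKN1B (0.18) and CDKN3 (0.18) in afatinib over DMSO and the CDKN2C interaction (0.33), and no other call of a member.

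Without the concentration set term, members called fell to 0 in afatinib over DMSO (against 2), to 1 in combination over DMSO (against 4), over afatinib (against 2) and over paclitaxel (against 4), and to 1 in afatinib over paclitaxel (against 4). Of the 19 calls, 6 held without the set term and 9 on the authors' corrected table, which was also fitted without that term. On that table members called were 1 (CDKN2C) in afatinib over DMSO, 0 in paclitaxel over DMSO (against 3), 1 in combination over afatinib, 2 in combination over paclitaxel and 2 in afatinib over paclitaxel. With replicates 3 and 4 alone they were 1 in afatinib over DMSO and 2 in combination over DMSO, in combination over paclitaxel and in afatinib over paclitaxel, and with replicates 1 and 2 alone 2 in combination over paclitaxel, where fewer samples were fitted. In afatinib over DMSO they were 4 with upper-quartile factors and 4 with the replicate block. In the interaction, 1 member (CDKN2C) passed with DESeq2's size factors, with no filter, with DESeq2 and with the replicate block, and 0 to 1 when a library was left out.

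The sign changes were CDKN1B in paclitaxel over DMSO with replicates 1 and 2 (0.0036), CDKN2D in paclitaxel over DMSO with replicates 1 and 2 (0.014) and on the corrected table (0.037), CDKN2D in combination over DMSO with replicates 1 and 2 (0.066), CDKN2D in combination over afatinib with replicates 3 and 4 (−0.15, while replicates 1 and 2 alone gave a called 0.25), CDKN2D in combination over paclitaxel with replicates 1 and 2 (0.052) and when libraries were left out (−0.10 to 0.035), and CDKN2C in combination over afatinib with replicates 1 and 2 (0.018) and on the corrected table (0.0052). None of these values was called in the main test. Of 84 calls of the other named genes, recomputed in the same settings (a choice made after seeing the data, as were the alternative G2/M interaction counts), 31 held in every setting and 4 were lost when some library was left out. The corrected table turned CDK4 (0.022) and KCNQ1OT1 (−0.13) in combination over DMSO. The cause of these changes was not tested.

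Over all genes, calls in afatinib, paclitaxel and combination over DMSO were 380, 625 and 2310 without the set term, against 3432, 3694 and 6830 with it. On the corrected table, also fitted without the set term, they were 951, 0 and 3592. In these comparisons replicates 1 and 2 alone gave 1245, 1779 and 4670 calls and replicates 3 and 4 alone 527, 796 and 3181. With log2 concentration added the paclitaxel and combination counts were 1923 and 4103. In combination over afatinib, combination over paclitaxel and afatinib over paclitaxel, against 4935, 4347 and 6479, the calls were 1143, 768 and 1654 without the set term, 1589, 1970 and 3734 on the corrected table, 2528, 1974 and 3615 with replicates 1 and 2 and 2019, 1298 and 2785 with replicates 3 and 4. The interaction count, 159, was 479 with no filter, 367 with DESeq2, 501 with the replicate block, 0 without the set term and on the corrected table, 3 with replicates 1 and 2, 4 with replicates 3 and 4, and 34 to 279 when a library was left out. The fit of only the groups compared gives no interaction value.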
